A study of Mus musculus with 16 samples.

Results

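Matrix metalloproteases are zinc-dependent enzymes that cut collagens, laminins, proteoglycans and other proteins of the extracellular matrix. Most are secreted as inactive precursors, while Mmp14 is anchored in the cell membrane, and the tissue inhibitors of metalloproteases encoded by the Timp genes bind the active enzymes and block them. In mammary tumours most of these genes are known chiefly from stromal fibroblasts and infiltrating myeloid cells, and some are also made by carcinoma cells. The genes described here are 10 of the 55146 in the deposited table, chosen by symbol: 7 proteases (Mmp2, Mmp3, Mmp9, Mmp11, Mmp12, Mmp13 and Mmp14) and 3 inhibitors (Timp1, Timp2 and Timp3). All 10 were found, none was listed at 0 in any library, and all 10 passed the filter for testing, at least 1 FPKM (fragments per kilobase of transcript per megafragment mapped) in at least 4 libraries.

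RNA was sequenced from 16 mammary tumours, 4 per group. All derived from MMTV-PyMT mice, in which a mouse mammary tumour virus promoter drives the polyoma middle T oncogene in mammary epithelium. Tumours taken at 12 weeks of age were grown in the mammary fat pad (number 4) of FVB recipients, so stroma of both donor and host can be present. For 28 days the recipients received vehicle, an antibody against the checkpoint ligand PD-L1 (anti-PD-L1, 5 mg/kg, 2 doses a week), sonidegib, an inhibitor of the Hedgehog transducer Smoothened (20 mg/kg daily), or both (the combination). The study set out to compare gene expression across these treatments. No label ties a tumour to its donor, and a p-value here reflects only how much these particular tumours varied, which could include technical variation.

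Estimated depth was 33.4 to 58.8 M (mega) fragments per library, an approximate figure. The vehicle 3 library stood apart: 11361 of its genes reached 1 FPKM, against 13107 to 14784 in the other libraries. The dependence of a gene's level on its GC content also differed. Its slope, in log2 units per 100 percentage points of GC, was 4.81, 3.58, 3.95 and -0.256 in vehicle 1 to 4. In combination 1 to 4 it was 2.39, -2.98, -2.56 and -3.61. The part of GC in the differences was examined by removing the GC trend. Epcam and Krt8, markers of the epithelial cells that a mammary carcinoma should contain, were at 83.8 FPKM or more in every library. In bulk tumours, fewer cells of a type and less RNA per cell cannot be told apart.

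By annotation (GENCODE M21, GRCm38), Mmp13 (chr9:7272514-7283331), Mmp12 (chr9:7344381-7369499) and Mmp3 (chr9:7445822-7455975) lie in one cluster on the plus strand of chromosome 9, which also holds Mmp10. Mmp2 lies at chr8:92827291-92853420, Mmp9 at chr2:164940780-164955850 and Mmp14 at chr14:54431612-54445364, all on the plus strand. Mmp11 is at chr10:75923222-75936496 on the minus strand. The inhibitors are spread over chromosomes X (Timp1, chrX:20870166-20874735, plus strand), 11 (Timp2, chr11:118301069-118355740, minus strand) and 10 (Timp3, chr10:86300372-86349506, plus strand). Timp1 and Timp3 sit inside the neuronal genes Syn1 and Syn3, which run on the opposite strand. Syn1 shares no exon base with Timp1 and did not exceed 0.205 FPKM, and Syn3, which shares 1733 of the 8144 exon bases of Timp3, was at 0.362 to 1.23 FPKM. Mmp11 shares 155 of 2778 exon bases with Chchd10, a mitochondrial protein gene on the other strand at 15.6 to 97.6 FPKM, so the low Mmp11 values are uncertain. The libraries are labelled stranded, but whether the counting used strand is not given in the sources used here.

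The sequences just upstream of the transcription starts are shown for the chromosome 9 genes because Mmp13 and Mmp3 each varied with their neighbour Mmp10 between tumours, as described further on. Mmp12 of the same cluster, which did not follow Mmp10, is shown beside them. RefSeq windows of 250 bases upstream (GRCm38.p6) were found for 8 of the 10 genes, 9 windows in all because Mmp12 has more than one start. The AP-1 motif TGANTCA, bound by Fos and Jun family dimers, was searched on both strands and occurred in 3 of the 9 windows, those of Mmp13, Mmp3 and the downstream start of Mmp12. It occurs in 6.75% of all 32851 windows of this length. Capitals mark TGANTCA and, where present, the TATA box letters TATAAA, which 12.4% of all windows hold. The matches do not overlap each other. In Mmp13 the AP-1 letters begin 35 bases upstream of the start, in Mmp12 44 bases, in Mmp3 46 bases and in the neighbouring gene Mmp10 63 bases. The Timp1 window, shown for comparison, holds neither motif. Timp1 was chosen because its rise in the combination against vehicle passed the test, while the similar rise of Timp2 narrowly did not. All are printed 5′ to 3′ on the plus strand.
Mmp13 (chr9:7272264-7272513): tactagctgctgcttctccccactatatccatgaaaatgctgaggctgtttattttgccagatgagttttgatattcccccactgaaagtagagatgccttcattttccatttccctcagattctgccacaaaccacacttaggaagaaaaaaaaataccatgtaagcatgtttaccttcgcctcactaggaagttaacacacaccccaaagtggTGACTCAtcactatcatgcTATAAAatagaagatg
Mmp12 (chr9:7347124-7347373): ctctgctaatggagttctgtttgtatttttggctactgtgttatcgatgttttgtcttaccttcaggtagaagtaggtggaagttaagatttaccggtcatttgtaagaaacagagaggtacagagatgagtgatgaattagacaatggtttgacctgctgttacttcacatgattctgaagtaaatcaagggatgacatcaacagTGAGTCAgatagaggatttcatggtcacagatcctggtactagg
Mmp3 (chr9:7445572-7445821): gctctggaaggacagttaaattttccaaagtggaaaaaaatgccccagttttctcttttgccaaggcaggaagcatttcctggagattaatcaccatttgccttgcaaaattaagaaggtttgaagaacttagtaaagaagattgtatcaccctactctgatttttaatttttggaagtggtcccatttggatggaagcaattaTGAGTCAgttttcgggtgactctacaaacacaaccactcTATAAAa
Mmp10 (chr9:7502092-7502341): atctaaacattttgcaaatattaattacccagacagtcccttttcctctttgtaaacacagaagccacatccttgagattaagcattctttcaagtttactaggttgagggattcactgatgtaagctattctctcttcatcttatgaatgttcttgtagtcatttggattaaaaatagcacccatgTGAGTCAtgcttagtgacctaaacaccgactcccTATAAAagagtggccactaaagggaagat
Timp1 (chrX:20869916-20870165): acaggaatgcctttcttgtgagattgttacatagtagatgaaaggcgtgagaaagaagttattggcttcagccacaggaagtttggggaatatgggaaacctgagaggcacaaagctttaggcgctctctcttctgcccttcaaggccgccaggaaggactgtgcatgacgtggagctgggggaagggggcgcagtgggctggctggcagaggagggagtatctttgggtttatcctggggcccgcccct
The GC box letters GGGCGG occurred on one strand or the other upstream of Mmp11, Mmp14, Timp1, Timp2 and Timp3, and in 32.7% of all windows. These matches describe letters and were not tied to binding or to any difference between groups.

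Over all 16 libraries the inhibitors and Mmp14 were the most abundant transcripts per length. Median levels were 26.9 FPKM for Timp2, 21.2 for Mmp14, 12.3 for Timp1, 10.04 for Timp3 and 7.75 for Mmp2. Lower medians were found for Mmp13 (4.90 FPKM), Mmp12 (4.56), Mmp3 (3.98), Mmp11 (1.48) and Mmp9 (1.19). The ranges of neighbours in this order overlapped throughout. Mmp14 varied least, 2.34-fold between its lowest and highest library, whereas Mmp12, Mmp13, Mmp9 and Mmp3 varied 18.6-fold, 15.3-fold, 14.9-fold and 14.6-fold. At the lowest value of Mmp9, 0.366 FPKM, about 61.6 fragments stand behind it, and about 40.5 behind the lowest of Mmp11, so counting error is not negligible for these genes.

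**Figure D1:**
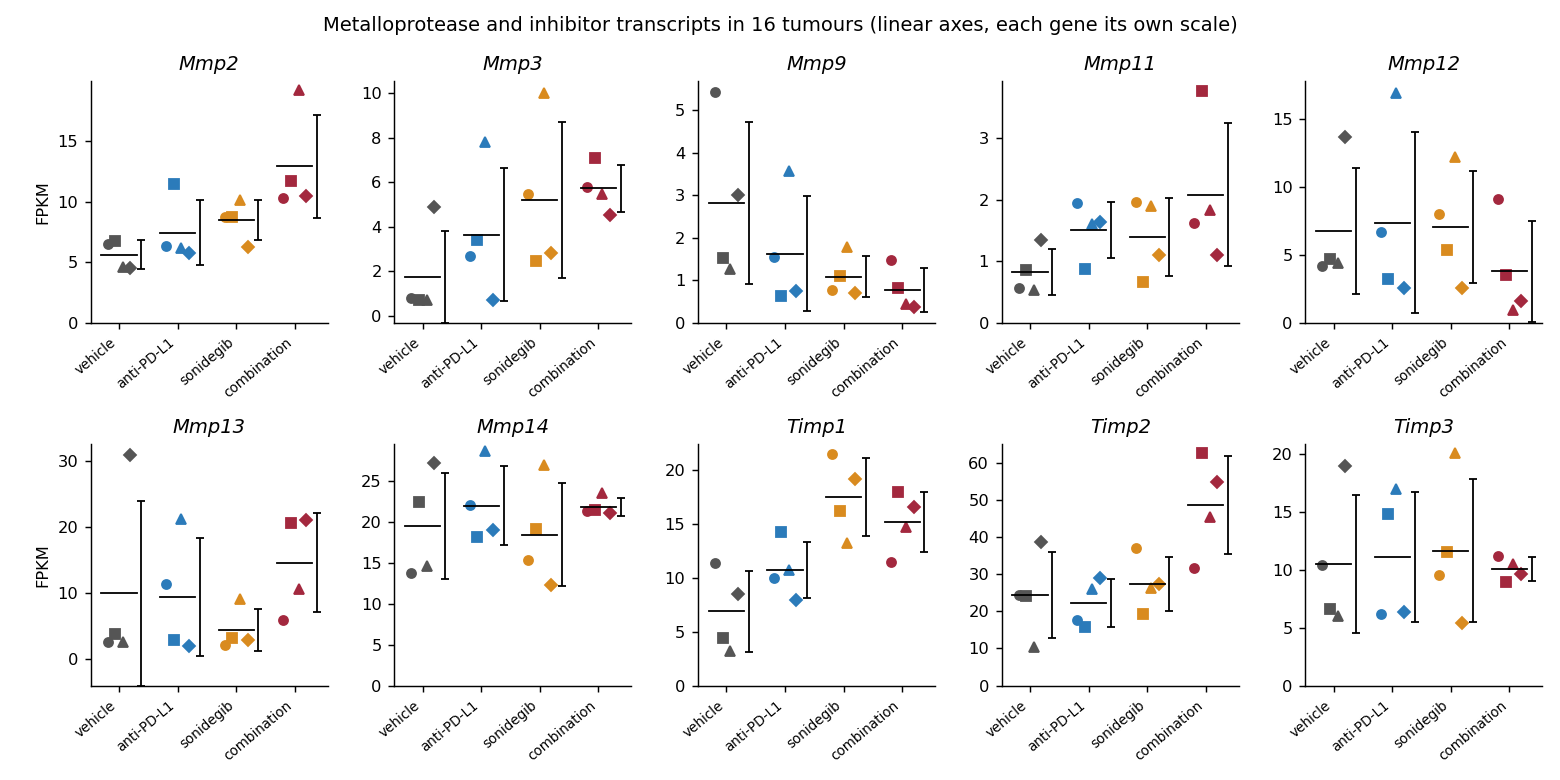
FPKM of the 10 genes in each of the 16 tumours by treatment group, on linear axes scaled for each gene. Points are tumours, with circle, square, triangle and diamond for replicates 1 to 4, horizontal lines are group means and bars at their right are ± 1 SD (n = 4). All 4 combination tumours lie above all 4 vehicle tumours for Mmp2 and Timp1.

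In the combination against vehicle, the gelatinase gene Mmp2 and the inhibitor gene Timp1 rose. Mmp2 rose from 5.61 ± 1.20 FPKM (SD, n = 4) to 12.9 ± 4.25, and Timp1 from 6.87 ± 3.77 to 15.2 ± 2.77. Timp2, Mmp3 and Mmp11 had higher means and Mmp9 a lower one without passing the test. These are the only 2 of 10 called, that is with an adjusted p under 0.05 (limma, Benjamini-Hochberg over the 15105 genes tested), where 11.3% of all tested genes were called. At an unadjusted p under 0.05 there were 6 of 10, with 33.6% of all tested genes. The median log2 difference over the 10 genes was 0.88, and over all tested genes it was 0.26. Of the tested genes called, 91.5% were higher, a share of 55.5% with median-of-ratios scaling and 50.3% after quantile normalization, which bring the median of all genes to 0.01 and -0.03. The median over the 10 genes was then 0.64 and 0.59. The calls of Mmp2 and Timp1 both ended (adjusted p 0.0509 to 0.145) when vehicle 1, 2 or 3 or combination 2, 3 or 4 was left out, and also with no filter on low values or when only the 2 groups' libraries were fitted, while both differences stayed at 0.86 or more.

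Mmp2 encodes gelatinase A, which degrades type IV collagen and denatured collagens. Its level was 6.52, 6.77, 4.63 and 4.53 FPKM in vehicle tumours 1 to 4 and 10.3, 11.7, 19.3 and 10.5 in the combination tumours. The anti-PD-L1 tumours gave 6.33, 11.5, 6.21 and 5.78 FPKM, and the sonidegib tumours 8.78, 8.73, 10.2 and 6.29. The combination tumours were thus above every vehicle and every sonidegib tumour, and overlapped the anti-PD-L1 group through its second tumour. The combination was 1.05 log2 units above vehicle on the log2(FPKM + 1) scale (SE 0.25, adjusted p = 0.0342). Groups that do not overlap in this direction were seen for 3.12% of all tested genes in the combination against vehicle and for 0.483% in the combination against sonidegib. With the GC trend removed the Mmp2 difference from vehicle was 1.10 (adjusted p = 0.0471), with median-of-ratios scaling 0.74 (adjusted p = 0.0468) and after quantile normalization 0.73 (adjusted p = 0.0512).

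Some of the fibroblast markers rose in the combination, as Mmp2 did. Of 8 listed, 4 were called higher in the combination than in vehicle, where 10.3% of all tested genes were. These were Dcn by 3.15 log2 units (SE 0.55, adjusted p = 0.0274), Lum by 2.75, Pdgfra by 1.09 and Thy1 by 1.03. With the GC trend removed Pdgfra was at 0.74 and no longer called (adjusted p = 0.101). The other 4 were not called: Fap (0.58), the collagen genes Col1a2 (0.10) and Col1a1 (-0.34), and Pdgfrb (-0.07). The summed level of the 8 markers was 84.3 to 123 FPKM with vehicle and 108 to 205 in the combination. The ratio of Mmp2 to Pdgfra was 3.50 ± 0.77 with vehicle and 2.92 ± 1.03 in the combination (SD, n = 4), with overlapping ranges of 2.72 to 4.52 and 1.97 to 4.31. Of 5 adipocyte markers only Fabp4 was testable, and it was called higher by 2.15 log2 units (SE 0.45, adjusted p = 0.0342), but not with the GC trend removed (1.499, adjusted p = 0.0804). These markers were summed to 0.622 to 3.93 FPKM with vehicle and 6.002 to 45.7 in the combination. Of 4 T cell markers only Cd3g was testable. It was called higher by 1.74 log2 units (SE 0.33, adjusted p = 0.0278), and with the GC trend removed it was at 1.01 (adjusted p = 0.0617). The summed T cell list was 0.922 to 1.86 FPKM with vehicle and 1.49 to 9.12 in the combination. The part of these cell types in the Mmp2 difference was not tested.

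Mmp9 encodes gelatinase B, an enzyme known mostly from neutrophils, macrophages and osteoclasts. The vehicle tumours had 5.43, 1.53, 1.28 and 3.00 FPKM, and the combination tumours 1.49, 0.817, 0.443 and 0.366. The anti-PD-L1 tumours had 1.54, 0.632, 3.57 and 0.759 FPKM, and the sonidegib tumours 0.774, 1.11, 1.78 and 0.697. Of the vehicle tumours 3 were above every combination tumour, and vehicle 3 was below combination 1. The combination minus vehicle difference was -1.01 log2 units (SE 0.34, adjusted p = 0.056), and it was called with median-of-ratios scaling (-1.23, adjusted p = 0.0303) and after quantile normalization (-1.26, adjusted p = 0.0318). It was not called when vehicle 1, 2 or 3 or combination 2, 3 or 4 was left out. Of the 8 neutrophil markers, 5 (Ly6g, Cxcr2, Mmp8, Retnlg and Ngp) stayed under 0.5 FPKM in every library. The summed neutrophil list was 14.6 to 42.7 FPKM with vehicle and 12.3 to 164 in the combination, and came mostly from S100a8, S100a9 and Csf3r. In the combination against vehicle these genes differed by 0.64, 0.17 and 0.27 log2 units and were not called (adjusted p = 0.479, 0.805 and 0.273).

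Mmp3 encodes stromelysin 1, which cuts proteoglycans, laminin and fibronectin and activates other protease precursors. Vehicle tumours 1 to 3 were at 0.783, 0.687 and 0.687 FPKM and vehicle 4 was at 4.87. Every combination tumour was between 4.53 and 7.09. The anti-PD-L1 tumours had 2.67, 3.42, 7.80 and 0.708 FPKM, and the sonidegib tumours 5.47, 2.48, 10.04 and 2.82. Low values near 0.7 FPKM thus occurred in 3 vehicle tumours and in 1 anti-PD-L1 tumour, and in none given sonidegib. The combination differed from vehicle by 1.51 log2 units (SE 0.48, adjusted p = 0.0518), which became 1.96 (adjusted p = 0.00554) without vehicle 4 and 2.16 (adjusted p = 0.0442) with a pseudocount of 0.1. Mmp3 was not called without vehicle 1, 2 or 3 or combination 2, 3 or 4.

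Mmp11, stromelysin 3, is known from fibroblasts around invasive carcinomas and has little activity on most matrix proteins. It was at 0.558, 0.862, 0.531 and 1.35 FPKM with vehicle and 1.62, 3.76, 1.84 and 1.11 in the combination. The groups overlapped, since combination 4 lay below vehicle 4. The difference was 0.71 log2 units (SE 0.25, adjusted p = 0.067). With anti-PD-L1 the mean was 1.52 ± 0.455 FPKM and with sonidegib 1.40 ± 0.63 (SD, n = 4).

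Mmp13, the main interstitial collagenase of mice, ranged widely within groups. Vehicle tumours had 2.57, 3.82, 2.53 and 30.9 FPKM, and vehicle 4 was the highest of all 16. The anti-PD-L1 tumours had 11.3, 2.87, 21.2 and 2.01 FPKM, the sonidegib tumours 2.17, 3.26, 9.10 and 2.86, and the combination tumours 5.98, 20.7, 10.7 and 21.1. Every combination tumour was above vehicle 1 to 3, and all 4 were below vehicle 4. The combination minus vehicle difference was 1.08 log2 units (SE 0.78, 95% interval -0.59 to 2.75, adjusted p = 0.344). Without vehicle 4 it was 1.84 (adjusted p = 0.0464), and it was not called without vehicle 1, 2 or 3 or combination 2, 3 or 4.

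Mmp12, the macrophage elastase, had 4.19, 4.71, 4.41 and 13.7 FPKM with vehicle and 9.14, 3.49, 0.912 and 1.63 in the combination. The values were 6.71, 3.19, 16.9 and 2.59 under anti-PD-L1 and 7.99, 5.38, 12.2 and 2.58 under sonidegib. All groups overlapped, and the combination minus vehicle difference of -0.84 log2 units (95% interval -2.10 to 0.42, adjusted p = 0.332) did not pass. Of the 8 macrophage markers 1 was called in the same comparison, where 11.3% of all tested genes were. This was Mrc1, higher by 1.30 log2 units (SE 0.25, adjusted p = 0.0278). With the GC trend removed it was at 0.68 (adjusted p = 0.106), and the call also ended without vehicle 1, 2 or 3 or combination 2 or 4. The summed level of the macrophage markers was 142 to 200 FPKM with vehicle and 192 to 278 in the combination.

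Mmp14, the membrane-type protease that activates the Mmp2 precursor at the cell surface, was at 13.8, 22.4, 14.6 and 27.2 FPKM with vehicle and 21.4, 21.5, 23.5 and 21.1 in the combination. The combination tumours lay within the vehicle range. The difference was 0.21 log2 units (95% interval -0.35 to 0.76, adjusted p = 0.609), and its sign changed with scaling (-0.13 with median-of-ratios scaling, -0.10 after quantile normalization). Group means ran from 18.5 ± 6.33 FPKM with sonidegib to 22.0 ± 4.80 with anti-PD-L1 (SD, n = 4).

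Timp1 encodes the inducible inhibitor that forms a complex with the Mmp9 precursor and is a poor inhibitor of Mmp14. Vehicle tumours had 11.4, 4.38, 3.21 and 8.51 FPKM. The combination tumours had 11.5, 17.9, 14.7 and 16.5, and the sonidegib tumours 21.5, 16.2, 13.2 and 19.1. Both of these groups lay wholly above vehicle, though combination 1 exceeded vehicle 1 by little. The combination was 1.15 log2 units above vehicle (SE 0.30, adjusted p = 0.0357), and it remained called with median-of-ratios scaling (0.85, adjusted p = 0.0312), after quantile normalization (0.84, adjusted p = 0.0313) and with the GC trend removed (1.09, adjusted p = 0.0471). With anti-PD-L1 the values were 9.9985, 14.2, 10.7 and 7.90 FPKM, and 1 of the 4 was above every vehicle tumour.

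Timp2 encodes the inhibitor that bridges Mmp14 and the Mmp2 precursor. It was at 24.4, 24.1, 10.4 and 38.7 FPKM with vehicle and 31.8, 62.6, 45.5 and 55.0 in the combination. The anti-PD-L1 tumours had 17.6, 15.8, 26.1 and 29.1 FPKM, all below the lowest combination tumour, and the sonidegib tumours 37.0, 19.3, 26.3 and 27.4. Against vehicle, 3 of the 4 combination tumours were above every vehicle tumour. The difference was 1.06 log2 units (SE 0.34, adjusted p = 0.0505), and it passed without vehicle 4 (1.32, adjusted p = 0.0074) or without combination 1 (1.25, adjusted p = 0.0155).

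Timp3, an inhibitor that binds to the matrix and also blocks Adam proteases, showed no difference between groups that exceeded their spread. Its mean was 10.5 ± 5.97 FPKM in vehicle tumours, 11.1 ± 5.63 under anti-PD-L1, 11.7 ± 6.18 under sonidegib and 10.1 ± 1.00 in the combination (SD, n = 4). The combination tumours, 11.2, 8.91, 10.5 and 9.64 FPKM, lay inside the vehicle range of 6.05 to 19.0. The difference was 0.07 log2 units (95% interval -0.73 to 0.87, adjusted p = 0.917), and it was negative with scaling (-0.25 with median of ratios, -0.24 with quantiles) and with the GC trend removed (-0.35).

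**Figure D2:**
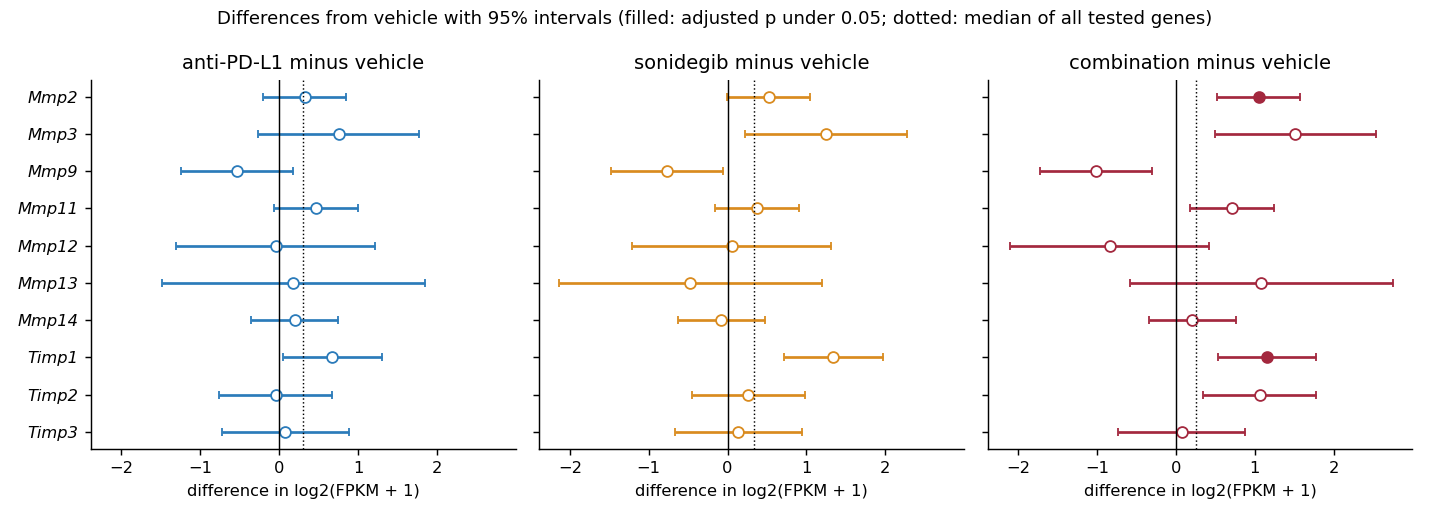
Difference in log2(FPKM + 1) of each treated group from vehicle for the 10 genes, with 95% intervals from limma. Filled circles have an adjusted p under 0.05, and dotted lines are the median over all tested genes. Only Mmp2 (1.05) and Timp1 (1.15) in the combination are filled, and the Timp1 difference with sonidegib is 1.34.

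The single agents were compared with the same 4 vehicle tumours, so these differences share their controls with those of the combination. For sonidegib against vehicle, limma called 0 of the 10 genes and 0% of all tested genes. At an unadjusted p under 0.05 there were 3 of 10, where the share of all tested genes was 27.3%. The 3 were Timp1 (1.34 log2 units, SE 0.30, adjusted p = 0.127), Mmp3 (1.25, SE 0.48, adjusted p = 0.141) and Mmp9 (-0.77, SE 0.34, adjusted p = 0.162). Timp1 was the 1 gene of the 10 whose groups did not overlap, which held in this direction for 6% of all tested genes. Timp1 and Mmp3 were called without vehicle 4, at 1.48 (adjusted p = 0.00875) and 1.69 (adjusted p = 0.0152). Mmp2 differed by 0.52 (adjusted p = 0.183), with 3 of 4 sonidegib tumours above every vehicle tumour.

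For anti-PD-L1 against vehicle, limma called 0 of 10 and 0% of all tested genes. At an unadjusted p under 0.05 there was 1 of 10, Timp1 at 0.68 log2 units (SE 0.30, adjusted p = 0.18), where the share of all tested genes was 24.6%. Mmp11 was above every vehicle tumour in 3 of 4 anti-PD-L1 tumours (0.47, adjusted p = 0.253). Mmp12, Mmp13, Mmp14, Timp2 and Timp3 differed by -0.04 to 0.20 log2 units, and 0 of the 10 had groups that did not overlap, against 3.39% of all tested genes in the higher and 0.477% in the lower direction.

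Adding one drug to the other was examined by setting the combination against each single agent. Against anti-PD-L1, 0 of 10 genes and 0.00662% of all tested genes were called, and 2 of 10 had an unadjusted p under 0.05, with 5.78% of all tested genes. These were Timp2 (1.10 log2 units, SE 0.34, adjusted p = 0.726) and Mmp2 (0.73, SE 0.25, adjusted p = 0.812), and Timp2 was higher in all 4 combination tumours than in any anti-PD-L1 tumour, as were 1.36% of all tested genes. Against sonidegib, 0 of 10 genes and 0% of all tested genes were called by limma. The same 2 genes, Timp2 (0.80, adjusted p = 0.959) and Mmp2 (0.53, adjusted p = 0.959), had an unadjusted p under 0.05, with 4.28% of all tested genes. None of the 10 was lower in all 4 combination tumours than in every sonidegib tumour, as 2.44% of all tested genes were. Timp1 did not share this pattern, with a combination minus sonidegib difference of -0.19 log2 units (95% interval -0.81 to 0.43).

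Sonidegib against anti-PD-L1 gave 0 of 10 genes and 0% of all tested genes called by limma, with Timp1 the 1 gene of 10 at an unadjusted p under 0.05 (0.67, SE 0.30, adjusted p = 1), as were 2.09% of all tested genes. No gene of the 10 separated these groups, as 2.24% of all tested genes did in the higher and 0.51% in the lower direction. The interaction asks whether the combination departs from the sum of the single-agent differences. It was called by limma for 0 of 10 genes and 0.00662% of all tested genes, and 0 of 10 had an unadjusted p under 0.05, against 9.88% of all tested genes. The interaction estimates farthest from 0 relative to their error were those of Timp1 (-0.87, 95% interval -1.75 to 0.02, adjusted p = 0.485) and Timp2 (0.84, 95% interval -0.17 to 1.85, adjusted p = 0.486). Across all 4 groups together, limma called 0 of 10 genes and 0.0199% of all tested genes. An unadjusted p under 0.05 was found for 5 of 10 (Mmp2, Mmp3, Mmp9, Timp1 and Timp2) and for 23.7% of all tested genes, and the lowest adjusted p was 0.162, shared by Mmp2 and Timp1.

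Ratios within a library do not depend on its scaling and are given as descriptions with no test. The Mmp9 to Timp1 ratio was 0.478, 0.350, 0.397 and 0.353 in the vehicle tumours. In the anti-PD-L1 tumours it was 0.154, 0.0446, 0.333 and 0.0962, with sonidegib 0.0360, 0.0683, 0.135 and 0.0365, and in the combination 0.130, 0.0456, 0.0301 and 0.0221. Every vehicle tumour was therefore above every treated tumour, although neither gene alone separated vehicle from all treated tumours. This pair was singled out after its values were seen. The Mmp14 to Timp2 ratio was 0.903 ± 0.37 in vehicle tumours, 1.04 ± 0.27 under anti-PD-L1, 0.721 ± 0.33 under sonidegib and 0.479 ± 0.15 in the combination, with overlapping ranges. The Mmp2 to Timp2 ratio was 0.278 ± 0.13 with vehicle and 0.281 ± 0.11 in the combination, both genes having a higher mean in the combination (SD, n = 4).

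**Figure D3:**
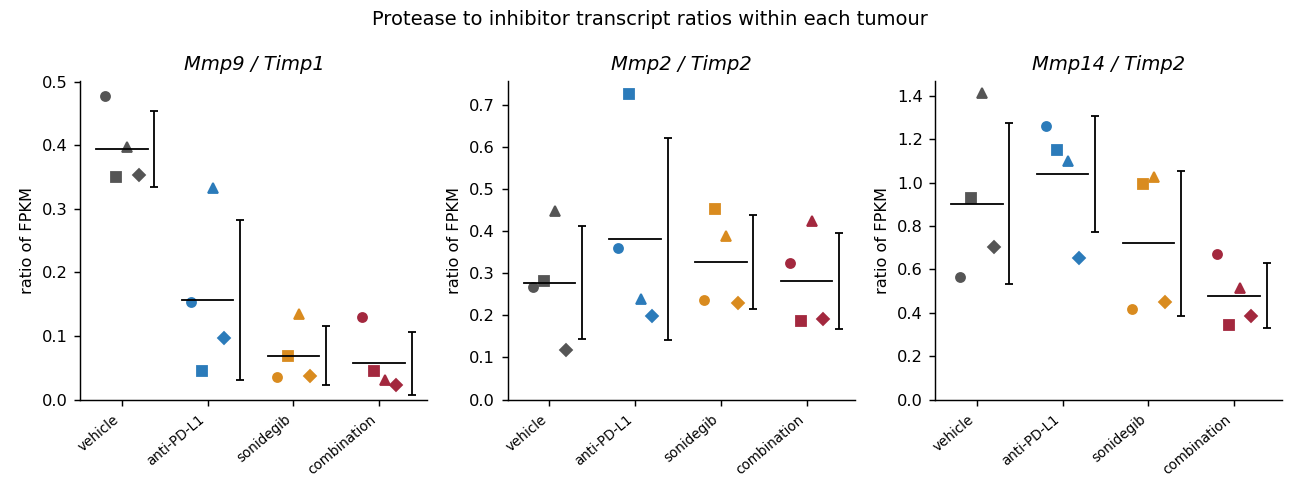
Ratio of protease to inhibitor FPKM in each tumour for Mmp9 to Timp1, Mmp2 to Timp2 and Mmp14 to Timp2, by treatment group. Symbols mark replicates 1 to 4 as circle, square, triangle and diamond, lines are group means and bars are ± 1 SD (n = 4). The 4 vehicle tumours have Mmp9 to Timp1 ratios of 0.350 to 0.478, above all treated tumours.

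Summed over the 7 proteases, the level was 28.7 to 85.5 FPKM with vehicle and 55.7 to 69.0 in the combination. The 3 inhibitors summed to 19.6 to 66.2 FPKM with vehicle and 54.5 to 89.5 in the combination. The protease sum was 1.16 ± 0.31 times the inhibitor sum in vehicle tumours, 1.20 ± 0.44 under anti-PD-L1, 0.814 ± 0.30 under sonidegib and 0.854 ± 0.13 in the combination (SD, n = 4). These ranges overlapped between all groups. Timp2 made up 58.2% ± 7.52 of the inhibitor sum with vehicle and 65.1% ± 5.08 in the combination, and Mmp14 made up 44.6% ± 10.4 and 35.6% ± 3.33 of the protease sum.

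In the chromosome 9 cluster, Mmp13 and Mmp3 each varied with Mmp10 between tumours, and Mmp12 did not correlate with it over all 16 tumours. Mmp10, stromelysin 2, which is no member of the 10, followed Mmp13 most closely of the tested genes ranked further on. It was at 0.145, 0.290, 0.266 and 4.89 FPKM in vehicle tumours, 1.58, 0.811, 5.42 and 0.446 under anti-PD-L1, 0.376, 0.640, 3.72 and 0.701 under sonidegib, and 1.40, 7.40, 1.99 and 8.25 in the combination. Vehicle 4, anti-PD-L1 3, sonidegib 3 and combination 4 were the highest of their groups for both Mmp13 and Mmp10. Vehicle 4, anti-PD-L1 3 and sonidegib 3 were also the highest of their groups for Mmp12 (13.7, 16.9 and 12.2 FPKM). The combination differed, as Mmp12 was highest in combination 1 (9.14 FPKM), where Mmp10 was lowest. Correlations of log2(FPKM + 1) over the 16 libraries were computed for the 55 pairs among the 10 genes and Mmp10, with 100000 permutations each. For 4 pairs both coefficients had an adjusted p under 0.05.

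Mmp13 and Mmp10 correlated with Pearson's r = 0.936 (permutation p adjusted over the 55 pairs 0.00055) and Spearman's rho = 0.868 (adjusted p 0.0033). The unadjusted p of that r was 1e-05, the smallest these permutations can give, and r was 0.934 without the 2 tumours farthest from the Mmp13 median. Mmp13 and Mmp14 gave r = 0.755 and rho = 0.803 (adjusted permutation p 0.0245 and 0.0102, r = 0.651 without 2 tumours). Mmp3 and Mmp10 gave r = 0.735 and rho = 0.744 (adjusted permutation p 0.0297 and 0.0212, r = 0.679 without 2 tumours). Mmp9 and Mmp12 gave r = 0.652 and rho = 0.782 (adjusted permutation p 0.0461 and 0.0121, r = 0.861 without 2 tumours). Raw permutation p-values of the last 3 were 0.00089, 0.00162 and 0.00592 for r. After subtraction of each group's mean, r for the 4 pairs was 0.946, 0.745, 0.755 and 0.682, so the relations were also present within groups. Over all 16 libraries, without subtraction of group means, Mmp12 and Mmp10 gave r = 0.176 and rho = 0.0882 (adjusted permutation p 0.631 and 0.821).

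**Figure D4:**
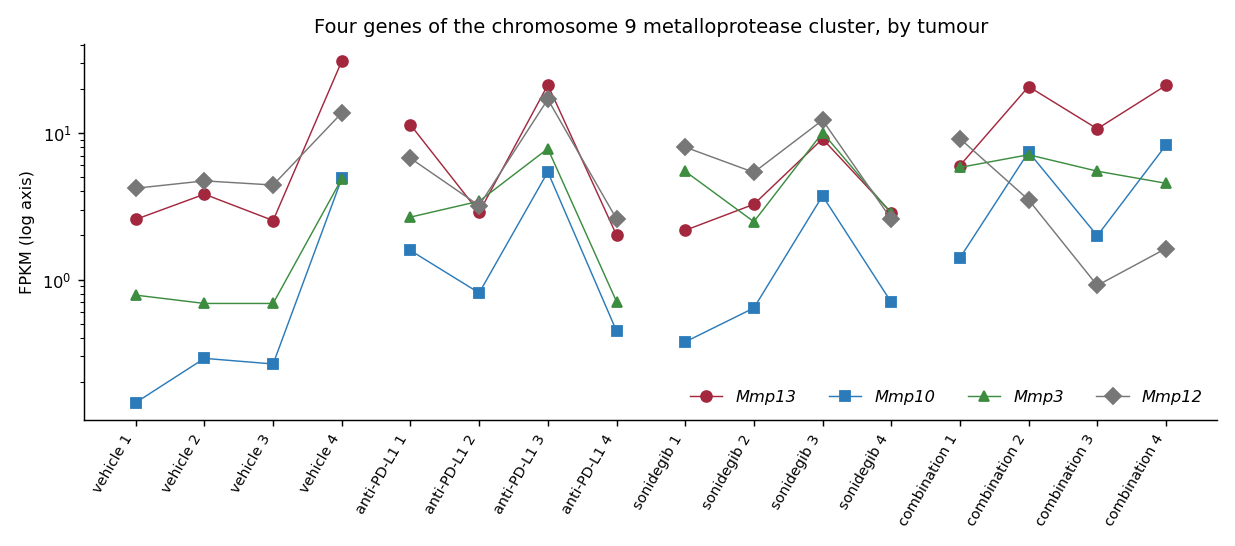
FPKM on a log axis of Mmp13, Mmp10, Mmp3 and Mmp12 in the 16 tumours, with lines joining tumours of a group only to guide the eye. Vehicle 4 (30.9 and 4.89 FPKM) and anti-PD-L1 3 (21.2 and 5.42 FPKM) are the highest of their groups for both Mmp13 and Mmp10, while Mmp12 is low in combination 3 and 4.

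The tested genes whose log2(FPKM + 1) was most like each member over the 16 libraries are given with Pearson's r as descriptions, since the highest of many correlations is selected and the libraries share depth and composition. Genes with provisional or accession-type names, pseudogenes named as such, and microRNA, small nucleolar RNA and mitochondrial tRNA genes were left out of this ranking. Mmp2 was most like Srpx (0.900), the matricellular gene Sparc (0.895) and the complement protease gene C1s1 (0.888). Mmp3 was most like the secreted protease gene Htra1 (0.883), Abraxas1 (0.869) and the actin-binding gene Tagln (0.865). For Mmp13 the order was Mmp10, Bend7 (0.890) and Ifi202b (0.888), and for Mmp12 it was Amotl2 (0.860), the collagen gene Col16a1 (0.856) and the lactate transporter gene Slc16a3 (0.849). Mmp14 was most like Tnfsf13b (0.871), Zfp583 (0.802) and the receptor kinase gene Met (0.799). The lists were Endov (0.860), Trip6 (0.810) and Als2cl (0.798) for Mmp9, and Abhd10 (0.83), Cp (0.820) and Nmnat3 (0.818) for Mmp11. Timp1 was most like Scnm1 (0.938), Xrcc6 (0.929) and Aga (0.923), Timp2 like Dbndd2 (0.915), Plscr2 (0.909) and the tetraspanin gene Cd63 (0.898), and Timp3 like Ddx5 (0.885), Sgce (0.883) and Bptf (0.863).

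Of 16 other Mmp genes, 6 were tested and 0 were called in the combination against vehicle by limma. An unadjusted p under 0.05 was found for 3 of the 6, and for 33.6% of all tested genes. Mmp10 differed by 1.42 log2 units (SE 0.65, adjusted p = 0.144) and Mmp23 by 0.46 (adjusted p = 0.144). Mmp15, a membrane-type protease known from epithelial cells, was at 39.7 ± 17.9 FPKM with vehicle and 18.6 ± 9.90 in the combination (SD, n = 4). The difference was -1.08 (SE 0.42, adjusted p = 0.0835). It was called with median-of-ratios scaling (-1.42, adjusted p = 0.0355) but not with the GC trend removed (-0.88, adjusted p = 0.11). The 10 untested ones (Mmp1a, Mmp1b, Mmp7, Mmp8, Mmp17, Mmp20, Mmp21, Mmp24, Mmp27 and Mmp28) did not exceed 0.624 FPKM in any library. Of 4 other inhibitor genes, Reck, A2m and Tfpi2 were tested and differed by -0.002 to 0.22 log2 units, with 0 called and 0 at an unadjusted p under 0.05. Timp4 did not exceed 0.197 FPKM.

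Among the Adam sheddases, 7 of 11 were tested and 0 were called by limma. At an unadjusted p under 0.05 there were 3 of 7, with 33.6% of all tested genes. Adam8, a myeloid sheddase, differed by -0.97 log2 units (adjusted p = 0.0509), and Adam9 and Adam10 by 0.93 (adjusted p = 0.067) and 0.76 (adjusted p = 0.0881). Adam8 was called lower with median-of-ratios scaling (-1.24, adjusted p = 0.0327) and after quantile normalization (-1.28, adjusted p = 0.0305). Adam12 and Adam15 were also called lower under both. With the GC trend removed Adam8, Adam12 and Adam15 were not called (adjusted p = 0.0777, 0.0675 and 0.242). The untested Adam22, Adam23, Adam28 and Adam33 did not exceed 1.68 FPKM in any library. Of the 18 Adamts genes, 9 were tested, and 0 were called or had an unadjusted p under 0.05. The untested Adamts5, Adamts6, Adamts8, Adamts14, Adamts16, Adamts17, Adamts18, Adamts19 and Adamts20 did not exceed 2.56 FPKM. In the plasminogen system and proprotein convertases, which activate protease precursors, 1 of 9 tested genes was called, where 11.3% of all tested genes were. This was Plat, tissue plasminogen activator, which rose from 1.68 ± 0.65 to 3.22 ± 0.50 FPKM (0.68, SE 0.20, adjusted p = 0.0415) but was at 0.19 (adjusted p = 0.365) with the GC trend removed, and its call ended without vehicle 1, 2 or 3, among others. Plg, Serpinb2 and Serpinf2 stayed at or under 0.247 FPKM and were not tested. Urokinase (Plau, -0.45) was not called.

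Of the 11 cathepsin and cystatin genes, all tested, 2 were called higher in the combination than in vehicle, where 10.3% of all tested genes were. Ctsk, the collagen-degrading cathepsin K, was at 2.54, 2.12, 1.42 and 2.61 FPKM with vehicle and 3.74, 10.3, 8.53 and 11.4 in the combination (1.51 log2 units, SE 0.30, adjusted p = 0.0342), and the groups did not overlap. Ctss, cathepsin S of antigen-presenting cells, rose from 43.1 ± 16.9 to 155 ± 86.3 FPKM (SD, n = 4; 1.65, SE 0.44, adjusted p = 0.0357), with combination 1 at 42.2 FPKM, inside the vehicle range. With the GC trend removed the Ctss difference was 1.18 (adjusted p = 0.076).

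The genes of matrix proteins cut by these enzymes moved in both directions. Of 16 tested, 1 rose (Dcn, decorin) and 4 fell in the combination against vehicle, where 10.3% of all tested genes were called higher and 0.953% lower. The 4 that fell encode basement membrane components: the type IV collagen chains Col4a1 (-0.90, SE 0.24, adjusted p = 0.0362) and Col4a2 (-0.98, SE 0.22, adjusted p = 0.0342), the laminin chain Lama5 (-0.99, SE 0.27, adjusted p = 0.0365) and perlecan, Hspg2 (-1.24, SE 0.29, adjusted p = 0.0342). Col4a2 was at 14.9, 17.6, 15.8 and 13.8 FPKM with vehicle and 10.9, 6.34, 8.09 and 5.12 in the combination. Hspg2 was at 7.83, 10.1, 7.79 and 6.87 FPKM with vehicle and 4.55, 2.41, 3.05 and 1.80 in the combination. For Col4a1, Col4a2 and Hspg2 all combination tumours were below all vehicle tumours, as were 1.27% of all tested genes, and for Lama5 3 of 4 were.

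All 4 were lower with each scaling: Hspg2 was at -1.56 and Col4a2 at -1.31 with median-of-ratios scaling. With the GC trend removed, Col4a2, Lama5 and Hspg2 remained called (adjusted p = 0.0471 each, at -0.76, -0.78 and -1.01) and Col4a1 did not (-0.76, adjusted p = 0.0575). All 5 substrate calls, both cathepsin calls, the 4 fibroblast marker calls and those of Cd3g and Fabp4 ended without vehicle 1, 2 or 3 or combination 2 or 4. The fibrillar collagen genes Col1a1, Col1a2 and Col3a1 differed by -0.34, 0.10 and 0.79 and were not called, and Sparc differed by 0.81 (adjusted p = 0.05).

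**Figure D5:**
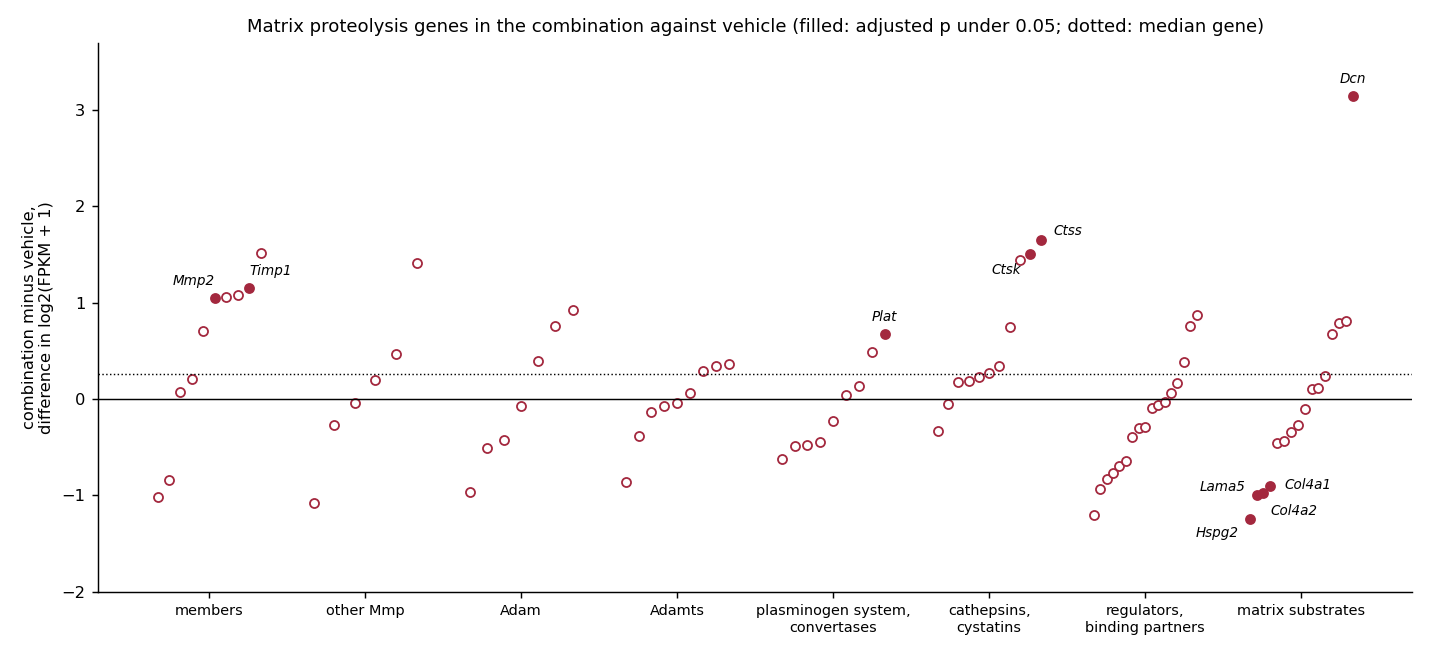
Combination minus vehicle difference in log2(FPKM + 1) for the tested genes of each list, sorted within a list, with the median of all tested genes as a dotted line. Filled circles have an adjusted p under 0.05 (limma): Mmp2, Timp1, Plat, Ctsk, Ctss and Dcn above 0, and Col4a1, Col4a2, Lama5 and Hspg2 below.

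Regulators and binding partners of the proteases were represented by 18 genes, of which 17 were tested. In the combination against vehicle 0 were called by limma. At an unadjusted p under 0.05 there were 6 of 17, with 33.6% of all tested genes. Fosl1, not tested, reached 0.652 FPKM at most. Genes of the AP-1 dimers that bind TGANTCA had lower means: Fosb differed by -1.21 log2 units (SE 0.39, adjusted p = 0.0518), Fosl2 by -0.77 (adjusted p = 0.0698) and Junb by -0.83 (adjusted p = 0.11). Fosb, Fosl2, Jun and Junb were called lower with median-of-ratios scaling (limma adjusted p 0.0289 to 0.0369) and after quantile normalization (0.0274 to 0.0318). Fos and Jund were not called under either. With the GC trend removed, Fosb, Fosl2, Jun and Junb were not called (limma adjusted p 0.0563 to 0.164). Of the 4 chromosome 9 genes that carry this motif upstream, Mmp13, Mmp3 and Mmp10 had positive differences in the same comparison (1.08, 1.51 and 1.42) and Mmp12 a negative one (-0.84), and 0 of the 4 were called. Thbs2, thrombospondin 2, a matricellular protein that promotes uptake of Mmp2, differed by 0.88 (adjusted p = 0.084). In the sonidegib and anti-PD-L1 comparisons with vehicle, limma called 0 genes of every one of these lists.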

How the data were processed

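Libraries were prepared from tumour RNA isolated with Qiazol; per the labels' protocols they are stranded and depleted of ribosomal RNA, whereas another label names polyadenylated RNA. The authors deposited FPKM for 55146 genes in 16 libraries. Per the submitters' processing notes, TopHat and Cufflinks were used with GRCm38.p6, and mm10 is named too; tool versions and the gene models are not stated in the material used here. Because FPKM is relative to all mapped fragments, abundant transcripts lower the values of the rest. The library numbers run through the groups in turn, so library order and treatment cannot be told apart. No donor, litter or batch is labelled.

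Identifiers were matched to GENCODE M21 (GRCm38), 53913 with their version and 54468 without. Depth was estimated from the FPKM step of 1 fragment in 4959 single-transcript genes longer than 2 kb. Testing covered the 15105 genes that reached 1 FPKM in 4 or more libraries. The scale was log2(FPKM + 1), which understates changes of low genes. All 16 libraries entered one fit in limma 3.58.1 (R 4.3.3), with a mean for each group, an intensity trend and robust variance estimates; tests were two-sided, with Benjamini-Hochberg adjustment over all tested genes in each comparison and a threshold of 0.05. The fit was tested on simulated data. Correlations, motif searches and figures used Python 3.11.15, numpy 2.4.6, scipy 1.17.1 and matplotlib 3.10.9. Promoter sequences came from RefSeq (GRCm38.p6); Mmp2 and Mmp9 had no entry.

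The 10 genes and all lists were chosen with earlier results of these data known. The 10 are named in every comparison; other lists are given by counts and up to 4 genes with the lowest p in the combination against vehicle; the 3 most alike genes are named for each of the 10; untested list genes are named with their range or highest value. Further list genes (Col1a1, Col1a2, Col3a1, Sparc, Plau, Mmp23, Fap, Pdgfrb, Dcn among the substrates) were named after their values were seen. So were Adam12, Adam15, Fos, Jun and Jund. The alternatives were median-of-ratios scaling, quantile normalization, no filter, a filter on the mean, a pseudocount of 0.1, removal of the GC trend, a replicate block, no intensity trend, only the compared libraries, and leaving out each library. Applying them to the genes of the other lists was decided after seeing the data.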

Additional observations from a re-analysis of the deposited data

Results flagged for a closer look

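In 7 of 40 sets of 4 tumours (10 genes in 4 groups), 1 tumour stood far from the other 3, with a gap to its nearest neighbour above Dixon's 95% limit for 4 values, as a share of the group's whole range. That limit gives about 1 in 20 only for independent, normally distributed values. The values here are unlogged FPKM of genes that share tumours, so the count cannot be set against that rate. Vehicle 4 was such a tumour for Mmp3 (4.87 FPKM), Mmp12 (13.7 FPKM) and Mmp13 (30.9 FPKM), the 3 genes of the chromosome 9 cluster among the 10. For Mmp2 these were anti-PD-L1 2 (11.5 FPKM) and combination 3 (19.3 FPKM). Sonidegib 3 stood out for Mmp13 (9.10 FPKM), and combination 3 for Mmp14 (23.5 FPKM), where the other 3 combination tumours were within 21.1 to 21.5 FPKM. Each was the highest of its group. The cause was not tested.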

How the results depend on the processing

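The count of the 10 genes called was recomputed under 25 alternatives, 16 of which leave out 1 library. In the combination against vehicle (2 called) it was 0 with no filter on low values and 0 when only the libraries of the compared groups were fitted, and it ranged from 0 to 6 when 1 library was left out. It was 0 without vehicle 1, 2 or 3 or combination 2, 3 or 4, 6 without vehicle 4, 5 without combination 1 and 4 without anti-PD-L1 3. Vehicle 4 had the lowest GC slope of the vehicle libraries and combination 1 the highest of the combination libraries. Leaving out either sets these groups further apart in GC slope, and the part of GC in these counts was not tested. Leaving out 1 library gave 0 to 2 for sonidegib against vehicle (2 without vehicle 4) and 0 to 4 across the 4 groups (4 without vehicle 4, 2 without combination 1). The other 5 comparisons stayed at 0 under all alternatives. Over all tested genes, 1703 were called in the combination against vehicle, and 2772 with median-of-ratios scaling, 2634 after quantile normalization, 569 with the GC trend removed, 8 with no filter and 25 with only the compared libraries.

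Of those called, 91.5% were higher, and 60.8% with the GC trend removed. The Mmp14 difference changed sign, being -0.13 with median-of-ratios scaling and -0.10 after quantile normalization. That of Timp3 also did, being -0.25 and -0.24 under these, -0.35 with the GC trend removed, -0.09 without vehicle 2 and -0.12 without vehicle 3, in a range of -0.12 to 0.38 over the libraries left out. The cause was not tested.

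The labels number the tumours 1 to 4 in each group. Deviations from the group means correlated at over 0.1 in 4 of 24 same-numbered pairs (r from -0.43 to 0.34), and in 9 of 48 choices the same number correlated best. With 4 tumours per group this cannot show whether same-numbered tumours share a donor, litter or batch. The main fit treated them as unpaired. With a replicate block, 2 of the 10 genes (Mmp2, adjusted p = 0.0337, and Timp1, adjusted p = 0.0388) and 1177 of all tested genes were called.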
